A study of Mus musculus with 2 samples.

Results

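The genes described here are the 60 odorant receptors Olfr1417 to Olfr1505, chosen by their numbers alone from the symbols in the deposited gene list, with pseudogenes (symbols that end in -ps and a number) left out. They are 60 of the 1104 odorant receptor features among 32534 features in all. Olfactory epithelium was taken from 2 female mice, and 1 droplet-based single-cell RNA library that counts transcript 3′ ends was made from each. The transgenic library came from a mouse aged 9 weeks of the line Tg(Or8a1-OR1A1,-MAPT/mCherry)D736Feins/J that was hemizygous for the transgene (D736Feins/+). By its name this construct pairs sequence of the mouse receptor gene Or8a1 with the human receptor OR1A1 and a MAPT/mCherry reporter. The wild-type library came from a mouse aged 8 weeks without this transgene, from a cross of the line 10G4-V2.2-#7/Jax with Bl6/129SF1/J mice. What drives the construct beyond its name, and what the line 10G4-V2.2-#7 carries, was not analysed here. The mice differed in genotype, strain and age, so these cannot be told apart, and with 1 mouse in each group no test between the libraries was possible. Intervals below are exact 95% intervals (Clopper-Pearson for shares, Poisson or conditional binomial for sums) that cover counting error only.

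An odorant receptor is a G-protein-coupled receptor on the cilia of an olfactory sensory neuron. Each mature neuron expresses 1 receptor gene at a high level, while neurons that are just leaving the precursor stage can hold traces of several receptor transcripts. Receptor genes lie in arrays on many chromosomes and are grouped by sequence into class I and class II and into families written MOR and a number. Each receptor is expressed only in neurons of a limited zone of the epithelium: dorsal neurons carry the enzymes Nqo1 and Acsm4, and neurons of the more ventral zones carry the adhesion molecule Ncam2 and the nuclear factor I proteins Nfia, Nfib and Nfix.

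All 60 genes were on chromosome 19, and their order along it followed their numbers at 59 of 59 steps between neighbours. The RefSeq names placed 58 of them in class II. The largest family was MOR202, with 30 genes between Olfr1442 and Olfr1489. MOR266 had 8 genes (from Olfr1417 to Olfr1495), MOR239 had 6 (Olfr1423 to Olfr1428), MOR212 and MOR214 had 4 each, MOR211 had 3, MOR215 had 2 and MOR127 had 1, Olfr1496. Olfr1432 and Olfr1458 had no family name. The coding sequences were on the whole far apart, with a median identity of 60.5% over the 1770 pairs and a lowest identity of 54.39%. The closest relative within the array was nevertheless near by in position: it was the next gene for 21 genes and lay within 3 places for 49. There were 11 pairs of 95% identity or more, and reads from such near-identical genes may not have been told apart in the authors' counting.

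The libraries held 70572741 UMIs (transgenic) and 55701219 UMIs (wild type), and 1745 and 1117 barcodes were called as cells, with medians of 14440 and 12983 UMIs. There was 1 barcode sequence among the called cells of both libraries, and it was not led by any of the 60 receptors. Clusters with all 10 markers of mature olfactory neurons raised held 629 transgenic and 436 wild-type cells, at 5025 and 5091 CPM (counts scaled to the total UMIs of the cells) of Omp, the olfactory marker protein. Earlier stages were a globose basal-like cluster (GBC-like, 53 and 7 cells), a precursor-like cluster with Neurod1 (INP-like, 69 and 16 cells), an immature cluster led by Tex15 (58 and 9 cells) and an immature cluster led by Gap43 (164 and 46 cells). A cluster of 131 and 31 cells with both Calb2 and Omp had too few raised markers to be named and is called Calb2-led. The remaining 641 and 572 cells were in other clusters, mostly of supporting, basal, stromal and immune types.

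A receptor was said to lead a cell if it had more UMIs than any other odorant receptor and at least 3. Of the receptor-led mature neurons, 12 of 449 in the transgenic library (2.67%, interval 1.39 to 4.62%) and 11 of 404 in the wild-type library (2.72%, interval 1.37 to 4.82%) were led by receptors from Olfr1417 to Olfr1505. These genes make up 5.43% of the receptor features, which is above both intervals. The number of genes that led at least 1 mature neuron was 10 of 60 (16.7%) in the transgenic library, where 26.4% of all receptors did, and 7 of 60 (11.7%) in the wild-type library, where 24.3% did. Counting cells of any cluster, 19 genes led 25 transgenic cells (31.7% of the genes, against 39.9% of all receptors) and 9 genes led 13 wild-type cells (15%, against 29.1%). All of these shares of genes were below the share over all receptors in the same library. Olfr1418 and Olfr1437 were the 2 genes that led mature neurons in both libraries, and 15 did so in at least 1. Over all clusters 4 genes led in both libraries, 24 in at least 1, and 36 in neither.

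**Figure D1:**
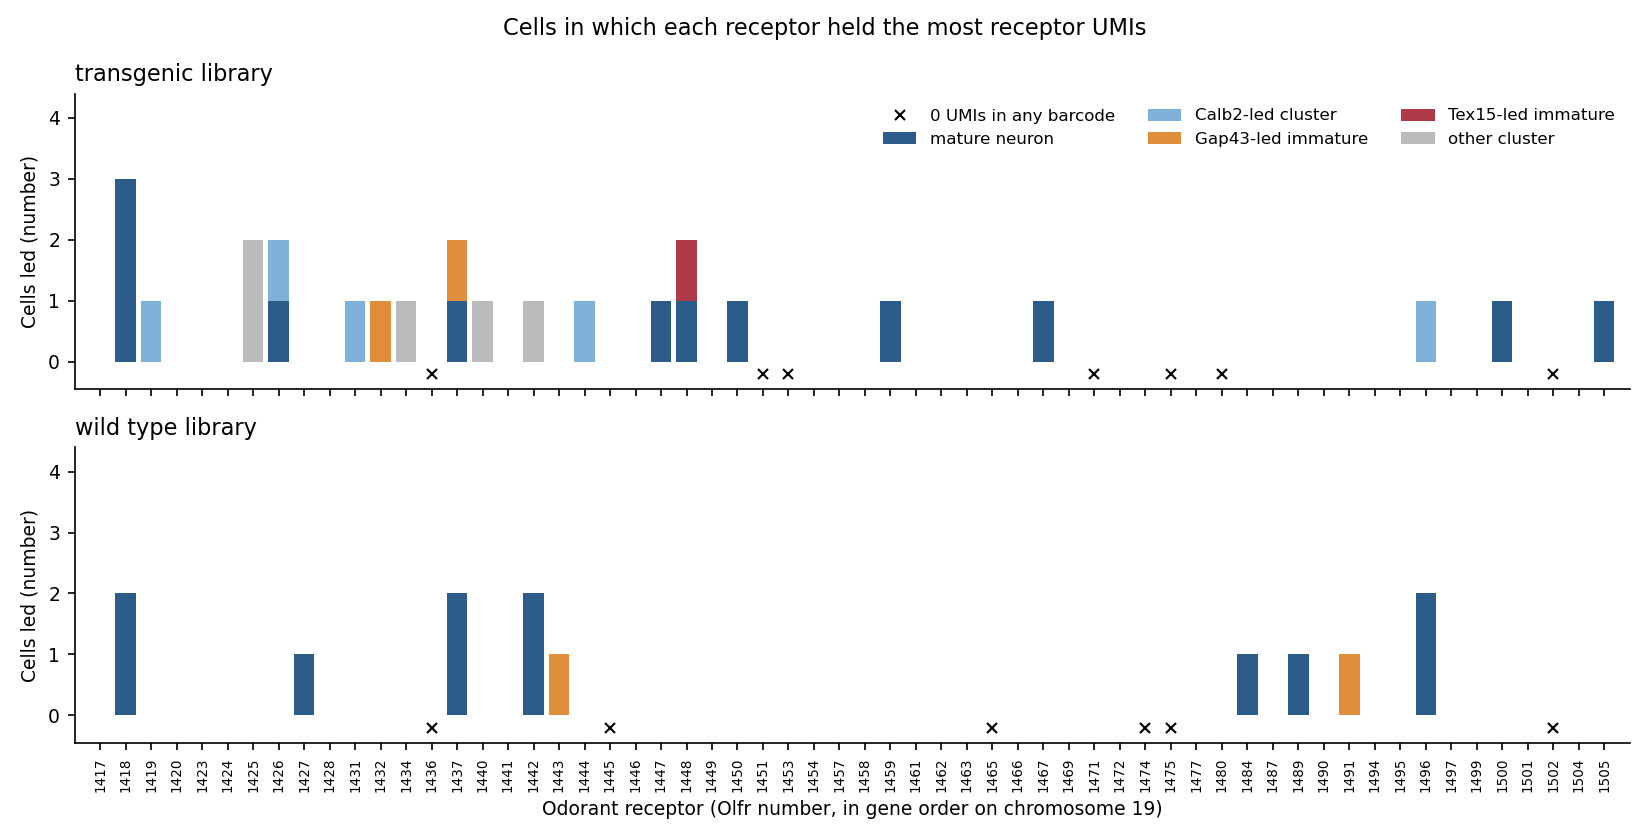
Number of called cells led by each receptor (bars, coloured by cluster group), in gene order along chromosome 19, for the transgenic library (top) and the wild-type library (bottom); crosses below the axis mark receptors with 0 UMIs in every barcode. Olfr1418 led the most cells in the transgenic library, with 3, and no receptor led more than 2 in the wild-type library.

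Olfr1418 led 3 transgenic and 2 wild-type mature neurons, at 54, 98 and 59 UMIs and at 39 and 130 UMIs. Olfr1437 led 1 transgenic mature neuron at 221 UMIs and 2 wild-type ones at 188 and 208 UMIs, and also a transgenic Gap43-led cell at 219 UMIs. Both receptors led mature neurons in both mice. The UMIs of Olfr1418 overlapped between the libraries. Those of Olfr1437 were slightly higher in the transgenic cells. Scaled to the UMIs of each cell, they overlapped only with the Gap43-led cell included. Olfr1437 had 23436 CPM (mature) and 13178 CPM (Gap43-led) in the transgenic cells and 17783 and 15657 CPM in the wild-type ones. The 1 transgenic mature neuron was thus above both wild-type ones, and such few cells do not describe a library. Olfr1496 led 2 wild-type mature neurons at 107 and 145 UMIs and a transgenic Calb2-led cell at 213 UMIs. Olfr1442 led 2 wild-type mature neurons at 92 and 117 UMIs.

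The other leaders of mature neurons had 1 neuron each. In transgenic mature neurons these were Olfr1459 at 334 UMIs, Olfr1448 at 239, Olfr1426 at 169, Olfr1500 at 116, Olfr1450 at 105, Olfr1467 at 66, Olfr1447 at 55 and Olfr1505 at 44. In wild-type mature neurons they were Olfr1489 at 262 UMIs, Olfr1427 at 200 and Olfr1484 at 53. A single neuron could thus supply most of a gene's UMIs in a library: Olfr1489 had 293 UMIs over all wild-type barcodes, of which 262 came from that 1 cell, and 11 UMIs in the transgenic library.

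The leading receptor dominated these neurons. Its median was 101.5 UMIs in the transgenic mature neurons (44 to 334) and 130 in the wild-type ones (39 to 262), beside medians of 92 and 116 UMIs in mature neurons led by other receptors. Scaled to the UMIs of each cell, the medians were 7906 against 6736 CPM (transgenic) and 8162 against 9553 CPM (wild type). The order thus differed between the libraries. The leader held a median of 98.9% and 99.05% of all receptor UMIs in the cell, beside 99.2% and 99.4% in neurons led by other receptors. No second receptor had more than 2 UMIs in a mature neuron led by these genes. Less mature cells were also led by these genes. The Calb2-led cells were led by Olfr1431 at 55 UMIs, Olfr1444 at 67, Olfr1496 at 213, Olfr1419 at 224 and Olfr1426 at 316, all of them transgenic. They were 5 of 106 receptor-led Calb2-led cells (4.72%, interval 1.55 to 10.7%). In the wild type 0 of 29 were led by one of the 60 genes, with an interval up to 11.9%, so the intervals overlap. The Gap43-led cells were led by Olfr1432 at 60 UMIs and Olfr1437 at 219 UMIs (transgenic) and by Olfr1443 at 15 and Olfr1491 at 236 UMIs (wild type). The leader held less of the receptor UMIs where it was low, 75% for Olfr1443. The lowest leader was Olfr1448 at 7 UMIs in a transgenic Tex15-led cell, where it held 36.8% of the receptor UMIs.

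Another 5 transgenic cells led by these genes lay outside the neuron clusters. Olfr1440 (MOR215-1), a receptor known to respond to the musk odorant muscone, led 1 called cell, with 120 UMIs beside 60 UMIs of Olfr202. That cell had 124720 UMIs and 999 UMIs of Cyp2g1, a cytochrome P450 of sustentacular cells, together with 148 UMIs of Omp. Olfr1425 led 2 cells (188 and 394 UMIs) and Olfr1442 led 1 (139 UMIs) in the same sustentacular-like cluster, with 84, 803 and 173 UMIs of Cyp2g1. Olfr1434 led a cell at 91 UMIs in a cluster with raised erythroid markers, and that cell had 69 UMIs of Omp. Markers of 2 cell types were thus present in several of these barcodes, and whether they held 2 cells was not tested. Among barcodes not called as cells, Olfr1440 led 3 transgenic ones (7, 33 and 58 UMIs) and 1 wild-type one (26 UMIs).

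Reads were counted mainly at transcript 3′ ends, so receptors that were never seen are described with their gene models. In the transgenic library 7 of the 60 genes (11.7%, beside 6.61% of all receptors) had 0 UMIs in every barcode, namely Olfr1436, Olfr1451, Olfr1453, Olfr1471, Olfr1475, Olfr1480 and Olfr1502. In the wild-type library 6 did (10.0%, beside 7.79%), namely Olfr1436, Olfr1445, Olfr1465, Olfr1474, Olfr1475 and Olfr1502. Olfr1436, Olfr1475 and Olfr1502 were absent from both. In the GENCODE M21 gene models, 4 of the 60 genes had no base after the stop codon: these 3 and Olfr1453, which had 1 UMI in all. None of the 56 genes with a longer model was absent from both libraries, and their median was 73.5 UMIs over both. Other receptors showed the same split. Of 71 with no base after the stop codon, 28 were never seen in either library and the median was 2 UMIs, while of 969 with a longer model 15 were never seen and the median was 105 UMIs. For the deposited counts only the genome build is known here, so the gene models behind them may differ from these.

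**Figure D2:**
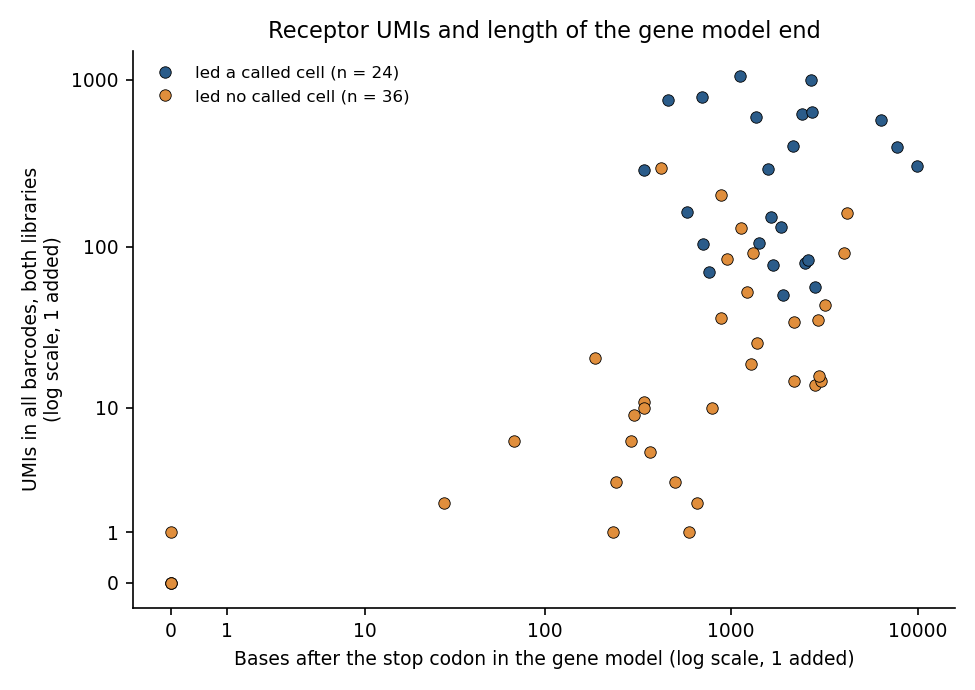
UMIs of each of the 60 receptors over all barcodes of both libraries (vertical axis, log scale with 1 added) against the number of bases after the stop codon in its GENCODE M21 gene model (horizontal axis, log scale with 1 added); blue points led at least 1 called cell and orange points led none. The 3 receptors with 0 UMIs coincide at the lower left, and the 24 that led a cell all had 339 or more bases after the stop codon.

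The 24 genes that led a called cell had a median of 1762 bases after the stop codon (339 to 9933) and 291 UMIs over both libraries, while the 36 that led none had a median of 719.5 bases (0 to 4149) and 14.5 UMIs. Leading a cell takes at least 3 UMIs, and those UMIs are part of these totals. The difference in UMIs therefore follows in part from how the genes were grouped. A longer modelled end did not always go with UMIs: Olfr1469, with 3040 bases, had 4 transgenic and 11 wild-type UMIs. Each of the 3 genes never seen had a near-identical relative among the 60. Olfr1502 matched Olfr1505 at 97.5% of coding positions, Olfr1475 matched Olfr1472 at 96.9%, and Olfr1436 matched Olfr1437 at 96.3%. Olfr1437 had 481 and 520 UMIs (transgenic and wild type), Olfr1505 had 49 and 2, and Olfr1472 had 2 and 4. The last 120 coding bases of each pair, up to and including the stop codon, are printed from the GENCODE M21 transcripts because in the models of Olfr1436, Olfr1475 and Olfr1502 they are the transcript end. In the models of their relatives Olfr1437, Olfr1472 and Olfr1505 a further 2680, 291 and 1894 bases follow. Capitals mark the bases at which the pair differs, 1 for the first pair, 2 for the second and 10 for the third.
Olfr1436: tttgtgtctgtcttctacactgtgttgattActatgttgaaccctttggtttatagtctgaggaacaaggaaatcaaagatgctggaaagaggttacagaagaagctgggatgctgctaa
Olfr1437: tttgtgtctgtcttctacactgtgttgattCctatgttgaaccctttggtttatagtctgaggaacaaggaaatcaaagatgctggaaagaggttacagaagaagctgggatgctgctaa
Olfr1475: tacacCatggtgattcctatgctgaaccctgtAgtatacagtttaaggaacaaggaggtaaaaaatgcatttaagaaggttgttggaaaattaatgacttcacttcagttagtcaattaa
Olfr1472: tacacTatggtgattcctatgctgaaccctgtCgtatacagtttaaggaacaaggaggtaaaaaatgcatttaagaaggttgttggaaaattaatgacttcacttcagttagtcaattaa
Olfr1502: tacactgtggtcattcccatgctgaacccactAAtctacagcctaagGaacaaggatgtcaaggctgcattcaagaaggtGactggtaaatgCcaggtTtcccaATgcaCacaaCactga
Olfr1505: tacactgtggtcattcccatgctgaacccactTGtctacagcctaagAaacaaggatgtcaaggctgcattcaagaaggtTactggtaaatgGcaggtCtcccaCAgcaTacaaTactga
A 0 for Olfr1436, Olfr1475 or Olfr1502 therefore says only that no UMI was assigned to that gene, and a UMI of its relative may be uncertain. Olfr1417 and Olfr1418, at 97.05% identity, are a further such pair, with 7 and 12 UMIs of Olfr1417 beside 326 and 293 UMIs of Olfr1418.

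Low-level detection, 1 or 2 UMIs of any of the 60 receptors in a cell, was most frequent in the Tex15-led immature cells. There it was found in 19 of 58 transgenic cells (32.8%, interval 21.01 to 46.3%) and in 5 of 9 wild-type cells (55.6%, interval 21.2 to 86.3%). The 27 transgenic detections were of 20 different receptors, and the 9 wild-type detections were of 8. Before this stage the shares were low, at 3.77% in GBC-like and 4.35% in INP-like transgenic cells, and at 0 of 7 (an exact interval up to 41.0%) and 1 of 16 in wild-type ones. After it they were low again, at 6.098% and 6.52% in Gap43-led cells, 3.82% and 3.23% in Calb2-led cells and 2.86% and 2.06% in mature neurons (transgenic and wild type). With all UMIs, the interval of the transgenic Tex15-led cells did not overlap that of any other transgenic group. In the wild type the Tex15-led interval overlapped those of the GBC-like and INP-like cells, which reached 41.0% and 30.2%.

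Cell types that should lack these receptors were taken as a reference for free RNA. Fibroblast-like cells had a share of 2.38% and 2.27%, at median depths of 10916 and 10484 UMIs, and endothelial-like cells had 5.63% and 4.55%, at 11783 and 9368 UMIs. The shares in GBC-like, INP-like, Calb2-led and mature cells were within this range or inside its counting error. They could not be told apart from it. The Gap43-led shares were above it by less than their counting error. Whether any of these shares came from free RNA was not tested. Tex15-led cells were deeper than the fibroblast-like and endothelial-like cells, with medians of 13570 and 18315 UMIs. With every cell thinned to 5000 UMIs, which left out no cell, the Tex15-led share was 13.8% in 1 random draw and 24.1% in another (transgenic) and 33.3% in both (wild type), beside 0.936% and 0.780%, and 1.75% and 1.22%, in the other clusters. In the first draw the transgenic Tex15-led interval, 6.15 to 25.4%, overlapped those of GBC-like (up to 10.1%), INP-like (up to 7.81%) and Calb2-led cells (up to 6.55%). In the second draw it was 13.9 to 37.2% and overlapped no other. In the wild type it was 7.49 to 70.1% in both draws and overlapped those of all stages but the mature one. In barcodes below 100 UMIs, taken as free RNA, the 60 genes had 75.6 CPM (transgenic) and 43.8 CPM (wild type).

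**Figure D3:**
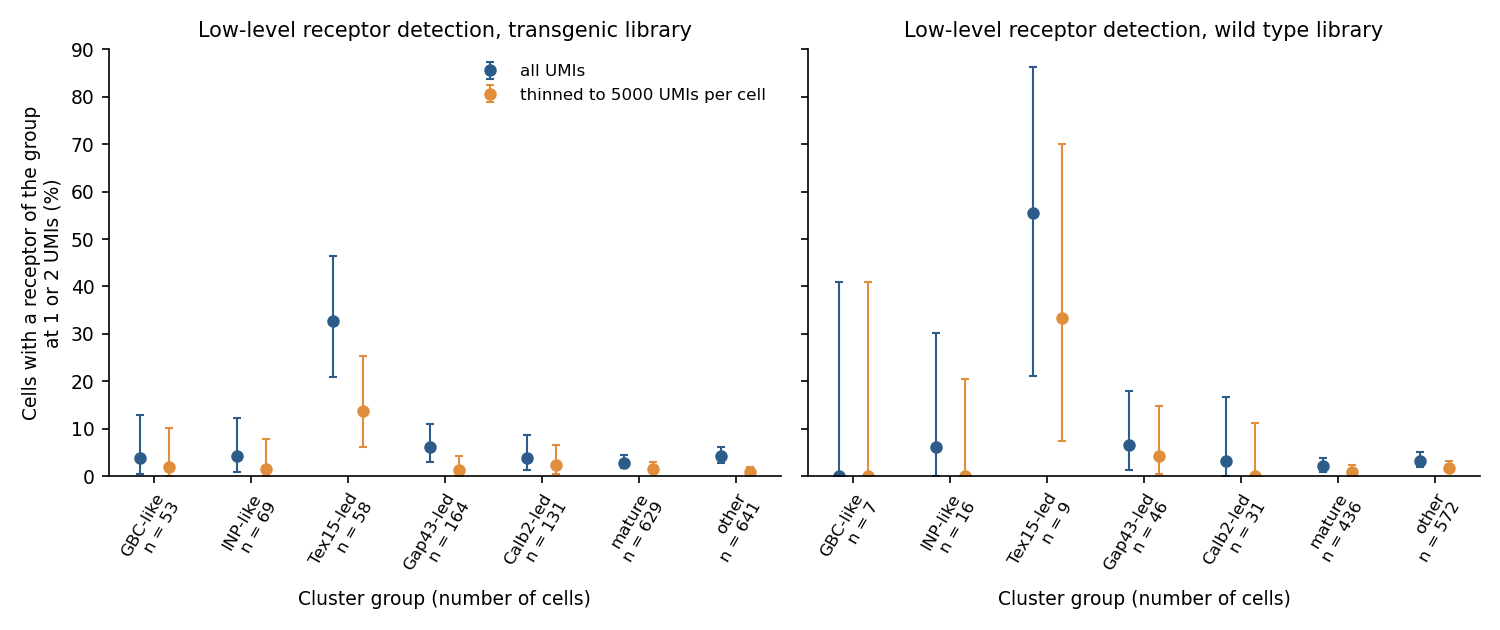
Share of cells with at least 1 of the 60 receptors at 1 or 2 UMIs (percent, vertical axis) by cluster group in the transgenic library (left) and the wild-type library (right), with all UMIs (blue) and after thinning each cell to 5000 UMIs (orange, 1 draw); bars are exact 95% binomial intervals. The Tex15-led cells stand highest in both panels, at 32.8% and 55.6% with all UMIs.

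The low-level transcripts of the Tex15-led cells came from many receptor genes. A Tex15-led cell held on average 9.67 (transgenic) or 16.9 (wild type) odorant receptors of any kind at 1 or 2 UMIs, and the 60 genes supplied 4.81% and 5.92% of these detections, beside their 5.43% of the receptor features. Olfr1448 had the most low-level detections in the immature transgenic cells, 7, of which 5 were in Tex15-led and 2 in Gap43-led cells. Olfr1500 had 3, and Olfr1431, Olfr1450 and Olfr1469 had 2 each. Olfr1500 was also first in the wild-type immature cells, with 2 detections, both in Tex15-led cells. Olfr1420, Olfr1427, Olfr1442 and Olfr1447 were among those with 1. Olfr1469 led no cell in either library, so its detections in Tex15-led cells had no counterpart in a mature neuron.

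No called cell of either library held 2 of the 60 receptors at 3 UMIs or more. At 1 UMI or more there were 12 such transgenic cells with 16 pairs and 6 such wild-type cells with 8 pairs. Of the 16 transgenic pairs 10 were in 6 Tex15-led cells, and of the 8 wild-type pairs 5 were in 3 Tex15-led cells. Some were pairs of neighbours. Numbers within 3 of each other were found in 3 of 16 and 1 of 8, and 1 and 2 were next to each other in gene order. Of all 1770 possible pairs of the 60 genes, 59 are next to each other. Whether neighbours were found together more often than that was not tested. The share of all possible pairs with numbers within 3 was not computed. The neighbours were Olfr1448 with Olfr1450 (in a Tex15-led and in a GBC-like transgenic cell), Olfr1417 with Olfr1418 and Olfr1480 with Olfr1484 (each 1 UMI beside a leader at 54 and 53 UMIs) and Olfr1500 with Olfr1501 (1 UMI each in a wild-type Tex15-led cell). Over both libraries the 24 pairs were a median of 17.5 places apart among the 60 genes (1 to 47), and 7 were 30 or more places apart, such as Olfr1444 with Olfr1504 and Olfr1448 with Olfr1500. These distances were not compared with those of all possible pairs. Among all barcodes, 1 wild-type barcode of 501 UMIs, not called as a cell, had 3 UMIs of Olfr1495 and 4 of Olfr1500.

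In the 33 neurons of all stages led by these receptors, the receptors with numbers within 3 of the leader's had almost no UMIs. They had 0 UMIs in 32 neurons and 1 UMI in the other, the Olfr1417 transcript named above. The UMI of Olfr1480, next in gene order to Olfr1484 but further in number, is not counted there. The Olfr1417 transcript lay beside its 97.05% identical relative Olfr1418, so the 2 may not have been told apart. The strongest second receptor of any kind had 0 UMIs in 13 neurons, 1 in 16 and 2 in 4.

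Each led neuron was typed by its zone markers, as dorsal-type where Nqo1 and Acsm4 together had more UMIs than Ncam2, Nfia, Nfib and Nfix together, and as ventral-type in the opposite case. The typing was checked on mature neurons led by class I receptors, which are known to be mostly dorsal. Of these, 94.6% of 37 transgenic and 96.4% of 55 wild-type ones were dorsal-type. The typing was not checked in Tex15-led, Gap43-led or Calb2-led cells, so their types are less certain. Of mature neurons led by the 60 receptors, 4 of 12 transgenic ones (33.3%, interval 9.92 to 65.1%) and 2 of 11 wild-type ones (18.2%, interval 2.28 to 51.8%) were dorsal-type. The shares in mature neurons led by all other receptors were 34.1% and 38.7%, and in those led by other class II receptors 29.4% and 29.1%. All of these lay within the intervals, so a difference was not detectable with this number of neurons.

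Within the array, the type of the neurons differed with the position of the leading gene. All 18 neurons led by genes from Olfr1417 to Olfr1443 were ventral-type, 10 of them transgenic and 8 wild type. They held 274 UMIs of the ventral markers against 2 of the dorsal ones, and their leaders were Olfr1418, Olfr1419, Olfr1426, Olfr1427, Olfr1431, Olfr1432, Olfr1437, Olfr1442 and Olfr1443. At the opposite end, all 5 neurons led by genes from Olfr1495 to Olfr1505 were dorsal-type, 3 of them transgenic and 2 wild type. Their dorsal markers had 106 UMIs against 11 of the ventral ones. Olfr1496 gave 3 of these neurons, with 44, 21 and 13 dorsal against 0, 3 and 6 ventral UMIs. Olfr1500 and Olfr1505 gave 1 each, with 14 dorsal UMIs in both.

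Between these ends the types were mixed. From Olfr1444 to Olfr1467, all in MOR202 apart from Olfr1458, 3 neurons were dorsal-type and 4 ventral-type, and all 7 were transgenic. Olfr1444 had 28 dorsal against 2 ventral UMIs. Olfr1448 had 11 against 1 in its mature neuron but 0 against 7, all of Nfib, in its Tex15-led cell. Olfr1467 had 6 against 5, which hardly separates the types. Olfr1447, Olfr1450 and Olfr1459 were ventral-type, with 0, 0 and 1 dorsal against 2, 3 and 15 ventral UMIs, so the first 2 rest on few UMIs as well. The 3 neurons led by genes from Olfr1469 to Olfr1494 (Olfr1484, Olfr1489 and Olfr1491, all wild type) were ventral-type, with 0 dorsal against 41 ventral UMIs. The MOR202 family was therefore of both types, since Olfr1442, Olfr1484 and Olfr1489 were ventral-type and Olfr1444, in a Calb2-led cell, was dorsal-type. The limits of these stretches were drawn after the values were seen, and they rest on 1 neuron for most receptors.

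**Figure D4:**
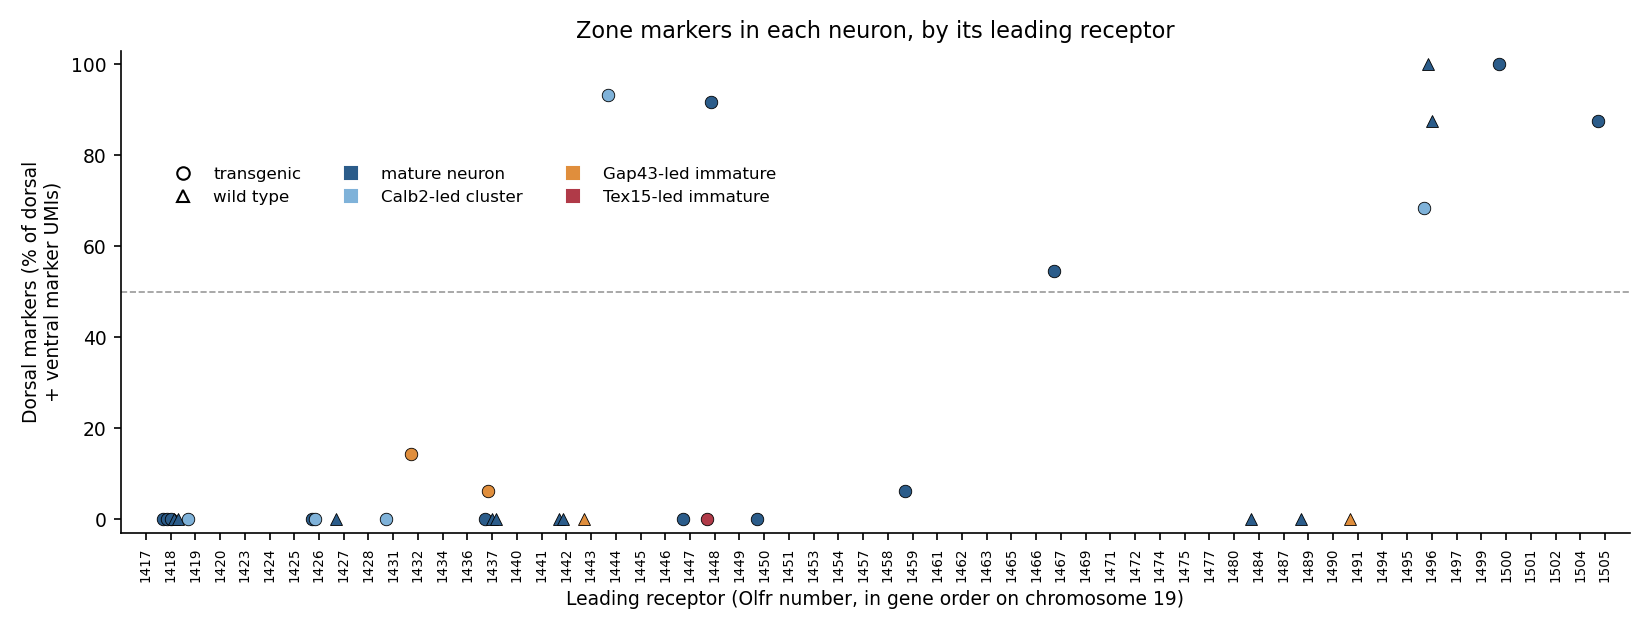
Dorsal marker UMIs (Nqo1 and Acsm4) as a percentage of dorsal plus ventral marker UMIs (Ncam2, Nfia, Nfib and Nfix) in each of the 33 neurons led by one of the 60 receptors, in gene order; circles are transgenic and triangles wild-type cells, colours give the cluster group, and the dashed line is 50%. All neurons led by receptors up to Olfr1443 are at 14.3% or less and all from Olfr1495 on are at 68.4% or more; points of 1 receptor at 0 overlap.

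Barcodes that were not called as cells but had at least 1000 UMIs and 500 genes were typed in the same way. From Olfr1417 to Olfr1443, 17 of 21 such barcodes were ventral-type and 4 had no difference between the marker sums. Several of the 17 rest on 1 ventral against 0 dorsal UMIs, among them barcodes led by Olfr1417, Olfr1420, Olfr1427, Olfr1437 and Olfr1440. Of the 17, 1 wild-type barcode of 19339 UMIs led by Olfr1442 at only 3 UMIs had 0 UMIs of Omp and 16 dorsal against 21 ventral UMIs, so it was neither clearly a neuron nor clearly ventral. In the mixed stretch they were 1 dorsal-type, 3 ventral-type and 1 undecided, and the 2 led by Olfr1448 were of different types. From Olfr1469 to Olfr1494 all 6 were ventral-type, 3 of them led by Olfr1494, with 1, 4 and 1 ventral against 0 dorsal UMIs. The 2 led by Olfr1495 and Olfr1496 were dorsal-type, with 3 dorsal and 0 ventral UMIs each. Olfr1494 and Olfr1495 are next to each other and both belong to MOR266. Of these 34 barcodes 27 had a mitochondrial share above 10%, the limit used for cells, and 4 were above the UMI minimum for cells; their median was 3281 UMIs (1032 to 19339). For scale, among other receptors that led at least 2 typed mature neurons, 85 of 94 (transgenic) and 75 of 78 (wild type) had all their neurons of 1 type.

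Summed over the led mature neurons, the dorsal markers had 46 UMIs (307.2 CPM) in the transgenic library against 563 CPM in neurons led by other receptors, a log2 ratio of -0.84 (interval -1.33 to -0.46). In the wild type they had 65 UMIs (469 CPM) against 699 CPM, a log2 ratio of -0.55 (interval -0.95 to -0.22). All of these wild-type UMIs were in the neurons led by Olfr1496, at 44 and 21, and the interval does not cover such a spread between neurons. The ventral markers had log2 ratios of -0.14 and -0.05, with intervals that held 0, and both were above 0 under some alternatives. These sums rest on few neurons. Against neurons led by other class II receptors alone, the wild-type dorsal ratio was -0.085, and with a mitochondrial limit of 5%, which left 4 led mature neurons in each library, the transgenic one was -2.33. Among the single markers, Nqo1 passed a 2-fold difference in the transgenic library, with a log2 ratio of -1.17 (23 UMIs, 153.6 CPM against 359.6 CPM), and Acsm4, Ncam2, Nfia, Nfib and Nfix did not. None of the 6 passed it in the wild type, where Nqo1 had a log2 ratio of -0.61. The background is that 7.29% of 6377 genes in the transgenic and 7.19% of 6581 in the wild-type library passed 2-fold in either direction, with median log2 ratios of 0.11 and 0.10.

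The other fixed lists were compared in the same way, beside the 7.29% (transgenic) and 7.19% (wild type) of all measured genes that passed 2-fold. At such shares, lists this short would hold few or no such genes. None of the 10 signal transduction genes, from Omp and the G protein subunit Gnal to the channel subunit Cnga2, passed 2-fold in either library, and their median log2 ratios were 0.05 (transgenic) and 0.20 (wild type). Of 10 axon guidance genes 9 were measured and none passed, with medians of 0.21 and -0.09. Of the 3 activity-linked genes none passed in the transgenic library, where the median log2 ratio was -0.52. In the wild type 2 passed: S100a5, a calcium-binding protein whose level rises with neuronal activity, had 3044 CPM against 12214 CPM (log2 ratio -2.001), and Pcp4l1, a small calmodulin-binding protein relative, had 173 CPM against 1017 CPM (log2 ratio -2.50). Kirrel2, an adhesion molecule regulated by activity and also counted in the axon guidance list, had a log2 ratio of -0.07 there. These sums rest on some of the neurons, since 6 of the 11 wild-type ones had at most 2 UMIs of S100a5 and the other 5 had 32 or more. All 24 UMIs of Pcp4l1 were in 1 of the 11, led by Olfr1484.

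The transgene was counted as a feature of its own, and it can be compared with the endogenous leader within a neuron. Of the 12 transgenic mature neurons led by these receptors 6 had at least 1 transgene UMI (50%, interval 21.1 to 78.9%) and 3 had at least 5 (25%, interval 5.49 to 57.2%). The 3 were led by Olfr1448, Olfr1447 and Olfr1500, with 18, 16 and 13 transgene UMIs beside 239, 55 and 116 UMIs of the leader. The shares in mature neurons led by other receptors were 33.4% and 7.09% of 437, both inside those intervals. Mature neurons without any receptor at 3 UMIs had shares of 87.8% and 71.1% of 180. None of the 8 transgenic Tex15-led, Gap43-led or Calb2-led cells led by these receptors had a transgene UMI, with an interval up to 36.9%.

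Promoter sequence was compared for the 56 of the 60 genes with a window in the RefSeq table (build GRCm38.p6), using the 250 bases before each start. The homeodomain core TAATTA, searched on both strands, was found in 12 of 56 windows (21.4%), in 18.1% of windows of all odorant receptors and in 4.84% of all RefSeq windows. The Ebf core CCCNNGGG, also on both strands, was found in 1 of 56 (1.79%), in 2.76% of receptor windows and in 11.8% of all windows. A match describes letters only, and for most of these genes the annotated start may be the start of the coding exon. For 2 genes the window ended at an annotated 5′ end, Olfr1434 and Olfr1477. Over all odorant receptors 43 windows did so. Of these, 9 (20.9%) held the Ebf core, a larger share than in all RefSeq windows, and 7 (16.3%) held TAATTA. The low share of the Ebf core over all receptor windows may therefore not hold at true starts. Olfr1434 led 1 cell at 91 UMIs and had 146 UMIs over all transgenic barcodes and 5 over the wild-type ones, and its window at chr19:12279604-12279853 on the plus strand is shown as the example with a match, in capitals.
Olfr1434: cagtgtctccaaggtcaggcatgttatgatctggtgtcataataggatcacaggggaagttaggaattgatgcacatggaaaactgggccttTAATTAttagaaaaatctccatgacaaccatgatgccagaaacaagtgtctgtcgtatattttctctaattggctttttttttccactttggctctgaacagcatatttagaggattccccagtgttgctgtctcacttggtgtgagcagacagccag
Olfr1477 had neither motif in its window, and had 16 and 20 UMIs and led no called cell.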

How the data were processed

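The deposited files are raw UMI count matrices of all barcodes, 1 for each library. They were made by the authors with Cell Ranger 6.1.1 and the build GRCm39, per the submitters' processing notes; the matrix header names Cell Ranger 4. All values here come from these counts. Barcodes were called as cells with at least 10% of the 99th percentile of the 5000 deepest barcodes (and at least 1000 UMIs), 500 genes or more and a mitochondrial share of 10% or less. Scrublet marked 4 and 2 cells, which were removed; it marked too few to be relied on, so doublets may remain. Both libraries were clustered together without receptor and transgene features (scanpy 1.11.5, 2000 variable genes, 30 components, Leiden resolution 1), and clusters were named from 120 fixed markers of 19 classes. Fold comparisons used summed counts as CPM, with 1 UMI added, for genes with 50 UMIs and 20 CPM on 1 side. Named receptors were the 8 leading most mature neurons in each library, those in called pairs, the 5 with most low-level detections in immature cells and Olfr1440; other receptors were named after their values were seen. The 60 genes, the lists and the markers were chosen with earlier results of these data known, and the zone typing was set after the data were seen. Scripts were tested on simulated counts. Coding sequences came from GENCODE M21, whose identifiers matched 60 of 60 genes; promoter windows and family names came from RefSeq. No test was made, since each group had 1 mouse, and coordinates are those of GRCm38.p6.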

Additional observations from a re-analysis of the deposited data

Results flagged for a closer look

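Olfr1438-ps1 and Olfr1493-ps1, receptor pseudogenes that lie in the same stretch of numbers, and that the choice of genes left out, had UMIs above the 3 counts that a count of 0 allows. Olfr1438-ps1 had 79 UMIs over all transgenic barcodes, of which 68 were in 1 called cell, and 11 UMIs over the wild-type barcodes, none of them in a called cell. Olfr1493-ps1 had 11 UMIs in the transgenic and 12 UMIs in the wild-type library, with none in a called cell of either.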

How the results depend on the processing

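Of 118 alternative values 95 stayed within the spread or within 1.5 times the first value, and 23 moved. The ventral log2 ratios of -0.14 (transgenic) and -0.05 (wild type), whose intervals held 0, changed sign in some of them, given below; no other value changed sign. All 18 for the share of receptor-led mature neurons were among the 95. The causes of the 23 were not tested, apart from the smaller number of cells or UMIs that a setting itself leaves. A mitochondrial limit of 5% left 4 genes leading mature neurons in each library. It gave dorsal log2 ratios of -2.33 (transgenic) and -5.75 (wild type) and a wild-type ventral one of 0.54. The -5.75 comes from 0 dorsal UMIs in 4 neurons with 1 UMI added; against a floor of 3 UMIs over those neurons the dorsal level was at least 17.9-fold lower. Using the share of cells with a UMI, the dorsal log2 ratios were -0.015 and -1.28 and the ventral ones 0.27 and 0.31 (transgenic and wild type). Against class II leaders the wild-type dorsal ratio was -0.085, and as a mean over receptors it was -1.03 (ventral 0.10). Thinning to 5000 UMIs gave low-level shares of 13.8% (Tex15-led), 1.22% (Gap43-led) and 1.59% (mature) in the transgenic and 0.917% (mature) in the wild-type library. A fixed minimum of 2000 UMIs gave Tex15-led shares of 15.8% and 19.4%, with 146 and 31 cells in the cluster. The clustering differed there, as the transgenic Gap43-led group fell from 164 to 91 cells. These shares are therefore not of the same group of cells. At 1 UMI, 12 transgenic and 6 wild-type cells held 2 of the receptors. Genes with 0 UMIs were 22 and 33 in called cells and 28 and 40 in mature and immature neurons. Counting the Calb2-led cluster as mature was an alternative chosen after seeing the data. No paired analysis was possible because each group had 1 mouse; for the same reason no replicate could be left out.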

Other observations

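Barcodes of 1000 UMIs and 500 genes or more that were not called as cells held a larger share of receptor-led barcodes from these genes in the transgenic library than in the wild type, 27 of 403 (6.70%, interval 4.46 to 9.60%) against 7 of 254 (2.76%, interval 1.12 to 5.596%). The intervals overlap. Those led by these genes had median mitochondrial shares of 13.7% and 17.6%, against 5.49% and 5.56% in the called cells led by them, and the part of RNA quality in the shares was not tested.

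Low S100a5 was found in some of the wild-type mature neurons led by these receptors and not in others. Of the 11 mature neurons 6 had at most 2 UMIs of S100a5 and at least 10 UMIs of Calb2, which encodes the calcium-binding protein calretinin: both neurons led by Olfr1437, both led by Olfr1442 and both led by Olfr1496. The S100a5 counts were 2 and 0 for Olfr1437, 0 and 1 for Olfr1442 and 0 and 1 for Olfr1496, and the Calb2 counts were 20 and 17, 47 and 31, and 40 and 43. The other 5, led by Olfr1418, Olfr1427, Olfr1484 and Olfr1489, had 32 to 163 UMIs of S100a5 and 0 of Calb2. The 6 of 11 were 54.5% (interval 23.4 to 83.3%). Among wild-type mature neurons led by other receptors 61 of 393 (15.5%, interval 12.1 to 19.5%) had this combination. Among transgenic mature neurons it was 5 of 437 led by other receptors (1.14%) and 0 of the 12 led by these receptors. The transgenic mature neuron led by Olfr1437 had 30 UMIs of S100a5 and 0 of Calb2. The limits of 2 and 10 UMIs were chosen after these values were seen, so the share of 6 of 11 is not independent of them. No difference between the libraries was tested, nor was a link to the leading receptor.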
